A study of Mus musculus with 8 samples.

Results

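The transcripts described here are 10 genes of lysolipid signalling to the Hippo pathway effectors YAP and TAZ, out of the 24394 gene symbols shared by all tables. They were chosen by name: the sphingosine 1-phosphate (S1P) receptors S1pr1, S1pr2 and S1pr3, the lysophosphatidic acid (LPA) receptors Lpar4 and Lpar6, the LPA-producing enzyme gene Enpp2, and the G protein alpha subunits Gna11, Gnaq, Gna12 and Gna13. All 10 symbols were listed in every table, and 7 of the 10 passed the filter on low values. RNA came from endothelial cells sorted by flow cytometry from C57BL/6J mouse brain at postnatal day 8, with 4 wild-type libraries (WT 1 to 4) and 4 libraries from mice that carried VE-cadherin-CreERT2 with Yapf/f and Tazf/f (YT-ECKO 1 to 4). In the latter, a Cre recombinase under an endothelial promoter, active only after induction, removes floxed segments of Yap (gene symbol Yap1) and Taz (Wwtr1). The time of induction and whether the wild-type mice were treated alike, or came from the same litters, are not stated in these sources, so the effects of Cre, treatment and deletion cannot be told apart. Whether the reads of Yap1 and Wwtr1 fall within the floxed segments is not stated either. The labels do not say whether a library is 1 mouse, and p-values measure the spread between these libraries.

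S1P and LPA are lipid mediators of blood and tissue that act on G protein-coupled receptors of endothelial cells. Receptors that couple to G12/13 or Gq activate RhoA and the actin cytoskeleton, which keeps YAP and TAZ unphosphorylated and lets them enter the nucleus. Receptors that couple to Gi, S1pr1 foremost, act through Rac and stabilise endothelial junctions. YAP and TAZ have no DNA-binding domain and act on genes through TEAD factors. The comparison asks whether transcripts of this upstream branch differ once its endothelial effectors are deleted.

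The 8 tables gave log2 values of scaled reads, which were returned to the linear scale and summed to 10.3 to 10.9 M per library. The spacing of low values implied 6.66 M (YT-ECKO 1) to 16.8 M (WT 1) reads per library. Wwtr1 stood at 8220, 5906, 6756 and 5650 scaled reads in WT 1 to 4 and at 348, 2608, 1261 and 1124 in YT-ECKO 1 to 4. Yap1 stood at 2833, 1726, 1409 and 1887 in WT 1 to 4 and at 9.29, 605, 293 and 402 in YT-ECKO 1 to 4. Both were lower in every YT-ECKO library than in any WT library (two-sided exact permutation p = 0.0286, the smallest that 4 against 4 allows). Over 8706 tested genes, limma called 3 at a Benjamini-Hochberg adjusted p under 0.05, all lower in YT-ECKO. They were Camk2d, Bgn and Wwtr1, of which the first 2 are named after their values were seen. The call of Wwtr1 (limma adjusted p = 0.0113) was lost without WT 1, WT 2 or YT-ECKO 4 (limma adjusted p = 0.0755, 0.0580 and 0.0677), with the erythroid level as a covariate (0.109), with a pseudocount of 1 or 16 (0.263 and 0.0822), on the log2 values as deposited (0.2503) and without the filter (0.854). Yap1 was not called (limma adjusted p = 0.175). The total of 3 became 1 without WT 1, 0 without WT 2 and 6 without YT-ECKO 3. All 10 endothelial markers were above 0 in all 8 libraries, with a summed level of 67997 to 80504 scaled reads in WT and 65317 to 88531 in YT-ECKO. Among markers of other cells, summed levels reached 30071 scaled reads for the erythroid list and 5029 for choroid plexus epithelium. They were at most 1896 in the lists for neurons, mural cells, perivascular fibroblasts, astrocytes, the oligodendrocyte lineage, microglia, platelets and leukocytes.

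None of the 7 tested lysolipid genes was called, against 0.0345% of all tested genes, and the limma adjusted p was 0.990 to 0.994. In all 10 genes the WT and YT-ECKO values overlapped, where 3.4% of all tested genes had groups without overlap. Of the 7, 5 had lower and 2 had higher fitted values in YT-ECKO (71.4% lower, against 56.9% of all tested genes). Their median log2 difference was -0.14, beside -0.09 for all tested genes. Differences are YT-ECKO minus WT of log2 scaled reads after a pseudocount was added, a scale that understates the change of low genes. In sorted bulk cells, fewer cells of a type and less RNA per cell cannot be told apart.

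**Figure D1:**
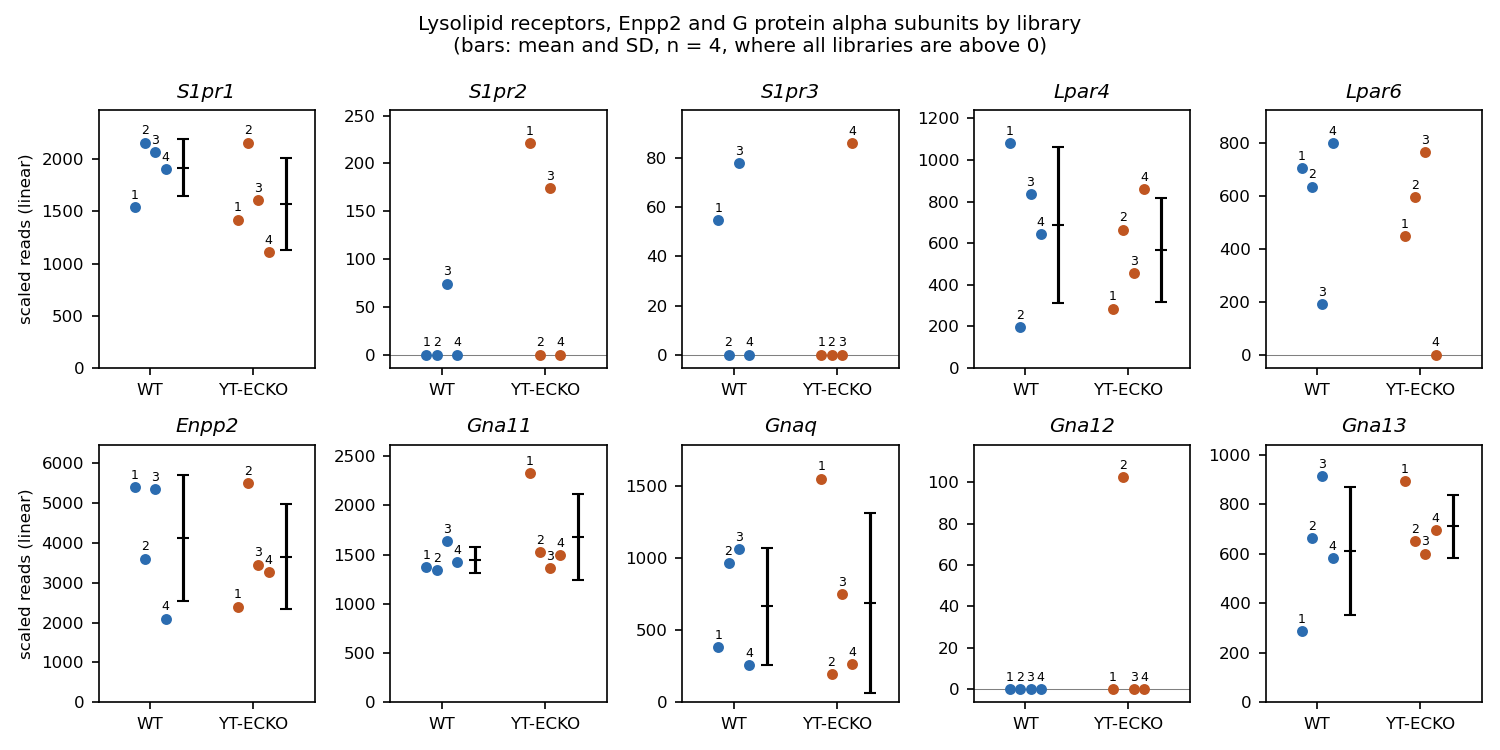
Scaled reads (linear axis) of the 10 genes in each library, with WT in blue, YT-ECKO in orange and the replicate number above each point; bars are the mean and SD (n = 4) for genes above 0 in all libraries. The groups overlap in every panel, and S1pr2, S1pr3 and Gna12 are at 0 in most libraries.

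S1pr1 encodes the Gi-coupled S1P receptor of endothelial barrier and vessel stability (chromosome 3, 115710433 to 115715072, minus strand, GRCm38). It stood at 1537, 2156, 2067 and 1903 scaled reads in WT 1 to 4 and at 1419, 2157, 1608 and 1107 in YT-ECKO 1 to 4. YT-ECKO 1 and 4 lay below the lowest WT library, while YT-ECKO 2 lay beside the highest. The means were 1573 ± 441 in YT-ECKO and 1916 ± 273 in WT (SD, n = 4 each). The log2 difference was -0.29 ± 0.37 (SE), with a 95% interval from -1.06 to 0.48 (limma adjusted p = 0.990; two-sided exact permutation p = 0.286). The coefficient of variation within WT was 14.3%, and the median of the 977 tested genes within 1.5 times its mean level was 35.4%. In YT-ECKO the corresponding values were 28.0% and 43.0%. S1pr1 thus varied less between replicates than the middle gene of its level in both groups.

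S1pr2 and S1pr3 encode the S1P receptors that can also signal through G12/13 and Gq, and both were near the limit of these libraries. S1pr2 (chromosome 9, 20962361 to 20976781, minus strand) had 74.5 scaled reads in WT 3, 221 in YT-ECKO 1 and 174 in YT-ECKO 3, and was listed at 0 in the other 5 libraries. S1pr3 (chromosome 13, 51408639 to 51422797, plus strand) was above 0 in WT 1 (54.7), WT 3 (78.0) and YT-ECKO 4 (86.1), and likewise listed at 0 in 5. Neither passed the filter, and a listed 0 does not show that a transcript was absent. Fitted without the filter, S1pr2 had a log2 difference of 0.51 ± 0.40 and S1pr3 one of -0.11 ± 0.25 (SE; limma unadjusted p = 0.238 and 0.662, adjusted p = 0.854 and 0.954). The kit name and the catalogue number in the labels may describe different kits, so it is unsettled whether reads cover whole transcripts or only their 3′ ends. A level or share per kb assumes the whole exon length, and with 3′ reads the orders and shares per kb given here would not hold as stated. Per kb of exon, S1pr1 made up 96.2% to 100% of the signal of these S1P receptors in the WT libraries and 94.4% to 100% in YT-ECKO. S1pr1 was the main S1P receptor transcript in all 8 libraries.

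Lpar4 and Lpar6 encode the endothelial LPA receptors that couple to G12/13. Lpar4 (chromosome X, 106920625 to 106933900, plus strand) stood at 1082, 195, 835 and 643 scaled reads in WT 1 to 4 and at 285, 665, 455 and 860 in YT-ECKO 1 to 4. WT 2 and YT-ECKO 1 were low, so that both extremes, 195 and 1082, were WT libraries. The log2 difference was -0.16 ± 0.53 (SE), with a 95% interval from -1.25 to 0.94 (limma adjusted p = 0.994; two-sided exact permutation p = 0.657). Lpar6 (chromosome 14, 73237895 to 73243294, plus strand) stood at 704, 635, 191 and 800 scaled reads in WT 1 to 4, at 448, 595 and 765 in YT-ECKO 1 to 3, and was listed at 0 in YT-ECKO 4. WT 3 was the low library of its group, and the other YT-ECKO libraries lay within the WT range. Lpar6 had the smallest unadjusted p of the 7, 0.429, and its log2 difference was -0.49 ± 0.62 (SE; limma adjusted p = 0.990), with a 95% interval from -1.76 to 0.77. That negative value rested on YT-ECKO 4: without it the difference was 0.13. With a pseudocount of 1 it was -2.10 in place of -0.49, since a 0 then weighs more.

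The Lpar6 gene lies wholly within Rb1, which is on the opposite strand, and 408 bases of its exons overlap Rb1 exons. The strand setting of the counting is not stated in these sources, so reads of the pair cannot be told apart there. Rb1, the retinoblastoma gene, was low: it stood at 439, 0, 41.6 and 0 scaled reads in WT 1 to 4 and at 0, 0, 121 and 86.2 in YT-ECKO 1 to 4. Lpar4 overlapped no other annotated gene. Per kb of exon, Lpar4 made up 28.1% to 84.8% of the Lpar4 and Lpar6 signal in WT and 43.1% to 100% in YT-ECKO. Neither LPA receptor was thus the higher one throughout.

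Enpp2 encodes autotaxin, the secreted enzyme that makes LPA from lysophosphatidylcholine (chromosome 15, 54838901 to 54952892, minus strand). It was the most abundant of the 10, at 5397, 3601, 5345 and 2101 scaled reads in WT 1 to 4 and at 2395, 5492, 3454 and 3254 in YT-ECKO 1 to 4. The lowest value, 2101, was in WT 4 and the highest, 5492, in YT-ECKO 2. The means were 3649 ± 1312 in YT-ECKO and 4111 ± 1579 in WT (SD, n = 4 each), and the fitted log2 difference was -0.14 ± 0.35 (SE). The 95% interval, from -0.87 to 0.59, was the narrowest of the 7 (limma adjusted p = 0.991; two-sided exact permutation p = 0.714). The spread of Enpp2 was above that of the middle gene of like level in WT: the coefficient of variation was 38.4% in WT, where the median of 466 genes of like level was 27.3%, and 35.9% against 35.3% in YT-ECKO.

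Its exons share 345 bases with Gm26684 on the opposite strand, a gene not used here. Enpp2 is also transcribed in oligodendrocytes and choroid plexus epithelium. Of the 8 oligodendrocyte markers, Mog, Mag, Olig1 and Sox10 were at 0 in all libraries, and the list summed to 1.99 to 515 scaled reads in WT and 165 to 1283 in YT-ECKO. Cnp and Mbp led this list, and Mbp was above 0 in YT-ECKO 2 alone (1067 scaled reads). Of the 6 choroid plexus markers, Kl and Folr1 were at 0 in all libraries, and the list summed to 42.8 to 5029 in WT and 9.29 to 1750 in YT-ECKO. Ttr, the transthyretin gene, gave most of it in WT 1 (4692 scaled reads), where Enpp2 was at 5397. In WT 4, the library with the lowest Enpp2 (2101), Ttr was at 0. Ttr was at 7.08 in YT-ECKO 2, the library with the highest Enpp2 (5492) and the highest oligodendrocyte sum (1283). Aqp1, the next in level, reached 256.2 scaled reads. The part of either cell type in the Enpp2 values was not tested.

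Gna11 and Gnaq encode the closely related alpha subunits of the Gq family, which activate phospholipase C beta and RhoA. Gna11 (chromosome 10, 81528724 to 81545190, minus strand) stood at 1371, 1341, 1638 and 1425 scaled reads in WT 1 to 4 and at 2323, 1524, 1360 and 1493 in YT-ECKO 1 to 4. Only YT-ECKO 1 lay above the WT range. The log2 difference was 0.17 ± 0.38 (SE), with a 95% interval from -0.61 to 0.95 (limma adjusted p = 0.991; two-sided exact permutation p = 0.429), and it was 0.02 without YT-ECKO 1. Its coefficient of variation in WT, 9.3%, was the lowest of the 7 and stood beside a median of 36.2% for 1074 genes of like level. Gnaq (chromosome 19, 16132831 to 16387463, plus strand) stood at 385, 966, 1066 and 258 scaled reads in WT 1 to 4 and at 1553, 194, 752 and 267 in YT-ECKO 1 to 4. In each group 2 libraries were high and 2 low, and the extremes, 194 and 1553, were both YT-ECKO. The log2 difference was -0.11 ± 0.58 (SE), with a 95% interval from -1.31 to 1.08 (limma adjusted p = 0.994; two-sided exact permutation p = 0.971). The linear mean of Gnaq, which the permutation test compares, went the other way, at 692 in YT-ECKO and 669 in WT. Its coefficient of variation in YT-ECKO, 90.5%, was the highest of the 7. Per kb of exon Gna11 made up 67.7% to 89.3% of the pair's signal in WT and 69.3% to 92.2% in YT-ECKO, and so was the higher of the 2 in all 8 libraries. How the counting shared out any reads common to such paralogs is not stated in these sources.

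Gna12 and Gna13 encode the alpha subunits that act on RhoA through RGS-domain guanine nucleotide exchange factors. Gna13 (chromosome 11, 109362831 to 109401369, plus strand) stood at 287, 662, 915 and 582 scaled reads in WT 1 to 4 and at 893, 652, 601 and 696 in YT-ECKO 1 to 4. The YT-ECKO values lay within the WT range, and WT 1 was the lowest of the 8. The log2 difference was 0.24 ± 0.48 (SE), with a 95% interval from -0.75 to 1.24 (limma adjusted p = 0.991; two-sided exact permutation p = 0.514), and it was -0.01 without WT 1. Gna12 (chromosome 5, 140758408 to 140830431, minus strand) was listed at 0 in 7 libraries, with 102 scaled reads in YT-ECKO 2. It did not pass the filter, and without the filter its log2 difference was 0.21 ± 0.19 (SE; limma unadjusted p = 0.297, adjusted p = 0.854). Its exons share 456 bases with those of Amz1 on the opposite strand, which reached 509 scaled reads in YT-ECKO 1, and those of Gna13 share 151 bases with the antisense gene Gm11696, which reached 1.75. Per kb of exon, Gna13 made up 77.2% of the pair's signal in YT-ECKO 2 and 100% in the other 7 libraries.

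**Figure D2:**
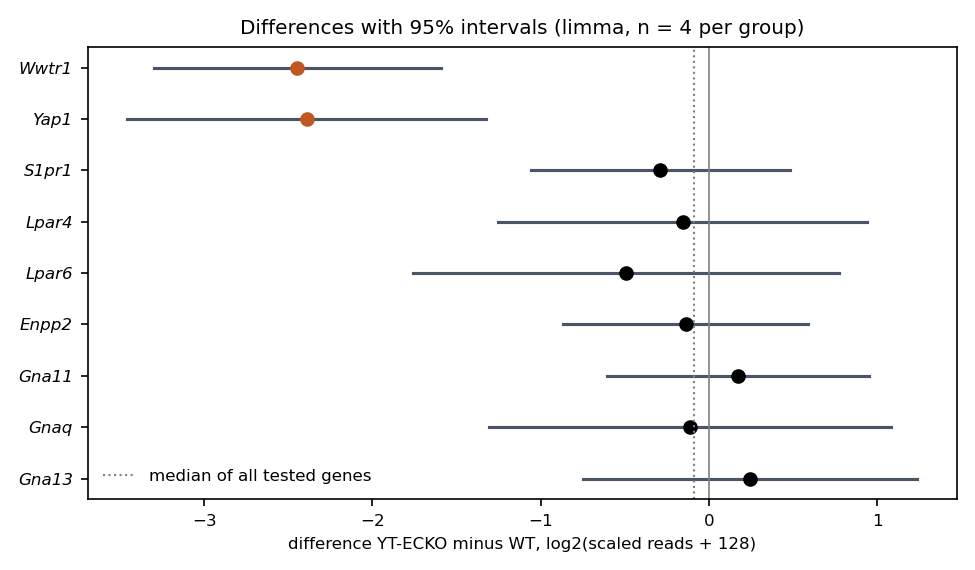
Difference YT-ECKO minus WT on the log2 (with pseudocount) scale (points) with 95% intervals (lines) from limma, n = 4 per group, for the targeted genes (orange) and the 7 tested lysolipid genes (black); the dotted line is the median of all tested genes. The intervals of the 7 all include 0, while those of Wwtr1 and Yap1 lie below -1.

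The intervals set what these libraries could show. Wwtr1 and Yap1 had differences of -2.45 ± 0.41 and -2.39 ± 0.52 (SE), while the lowest bound among the 7 lysolipid genes was -1.76, for Lpar6. A difference of 1 log2 unit in either direction lay outside the interval for Enpp2 and Gna11. For S1pr1, Lpar4 and Lpar6 a rise of that size lay outside the interval and a fall lay inside it. For Gna13 a fall lay outside and a rise inside, and for Gnaq both lay inside. Because of the pseudocount, a rise of 1 unit on this scale is more than a doubling of scaled reads, and a fall more than a halving. The upper bounds of Gna11 (0.95) and Lpar4 (0.94) lay close to 1 unit, so a doubling of either gene is not shown to be excluded. The half-widths ran from 0.73 (Enpp2) to 1.27 (Lpar6), and for Lpar6 the median half-width of genes of like level was 1.18.

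Per kb of exon, the order of levels in WT was Enpp2, S1pr1, Gna11, Lpar4, Gnaq, Lpar6, Gna13, S1pr3, S1pr2 and Gna12. Enpp2 stood at 711 ± 273 scaled reads per kb and S1pr1 at 629 ± 89.7 (SD, n = 4 each), levels that overlapped. Gna11 stood at 352 ± 32.8 per kb, and its highest WT library (399.9) lay below the lowest of S1pr1 (505) but above the lowest of Enpp2 (364). Lpar4 (162 ± 88.5), Gnaq (108 ± 65.7), Lpar6 (108 ± 49.9) and Gna13 (95.2 ± 40.2) overlapped one another and stayed below Gna11 in all WT libraries. Enpp2 lay above 91.5% and S1pr1 above 90.2% of the 8639 tested genes with a length, and Gna13 above 54.4%. In YT-ECKO the first 5 places were held by the same genes in the same order, and Gna13 then came before Lpar6. Gnai2 encodes an alpha subunit of the Gi family, to which S1pr1 couples. It stood at 3736 ± 290.4 scaled reads per kb in WT and 4506 ± 786 in YT-ECKO (SD, n = 4 each), far above each of the Gq and G12 family subunits.

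Listed zeros and high values alternated in the low members. Of the 80 values of the 10 genes, 18 were at 0 and the other 62 corresponded to 75 or more reads, by the value of 1 read in each library. The limit of 75 reads is the lowest of these 62 values, so it was set by them. How many captured molecules such reads came from was not tested. Over all tested genes, 12.3% of the values above 0 lay under 75 reads, and 44.3% of the tested genes were at 0 in at least 1 library. Among the 2026 tested genes within 1.5 times the mean level of Lpar6, 24.2% were at 0 in at least 1 library, as Lpar6 was in YT-ECKO 4.

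Genes that feed or clear the ligands also gave no call. Of the 13 genes of S1P supply and removal 9 were tested, 3 above and 6 below WT in fitted value, and the median was -0.20. Sphk2, a kinase that makes S1P, stood at 571, 1268, 1016 and 444 scaled reads in WT 1 to 4 and at 208, 670, 364 and 10.4 in YT-ECKO 1 to 4. Its log2 difference was -1.28 ± 0.58 (SE; limma unadjusted p = 0.0367, adjusted p = 0.882), with overlap between the groups. Sphk1, the other S1P kinase gene, was listed at 0 in all 8 libraries. Spns2, the endothelial S1P exporter, stood at 1751 ± 714 against 2583 ± 515 (SD, n = 4 each; limma adjusted p = 0.980). Cers2, a ceramide synthase gene, had a difference of -0.52 ± 0.41 and Sgpp2, an S1P phosphatase gene, one of 0.95 ± 0.47 (SE). Sgpp2 was at 0 in WT 1, 3 and 4 and in YT-ECKO 4.

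The 4 tested genes of the 10 for LPA supply and removal had fitted differences above 0, none of them called, with a median of 0.26. They were Ppap2b and Ppap2a, which encode lipid phosphate phosphatases (now Plpp3 and Plpp1), the phosphatase gene Acp6, and Mfsd2a, the lysophosphatidylcholine transporter of the blood-brain barrier. Ppap2b, which also counts among the S1P genes, stood at 653, 267, 570 and 416 scaled reads in WT 1 to 4 and at 391, 1566, 480 and 838 in YT-ECKO 1 to 4, with a difference of 0.54 ± 0.52 on the log2 scale (SE; limma adjusted p = 0.990). That of Acp6 rested on YT-ECKO 1: it had 404 scaled reads there and 0, 3.04 and 0 in YT-ECKO 2 to 4, below the WT libraries (10.1 to 43.3), and the two-sided exact permutation p was 1. Mfsd2a stood at 9335 ± 2337 against 8116 ± 1455 (SD, n = 4 each), a difference of 0.18 ± 0.27 (SE). Over all tested genes 56.9% had a lower fitted value in YT-ECKO, and Enpp2, counted with the 10 lysolipid genes, had a difference of -0.14. Of the 9 lysolipid receptor genes outside the 10, 7 were at 0 in all libraries and 2 were tested. Lpar1 was above 0 in all WT libraries (185 to 525 scaled reads) and at 0 in YT-ECKO 1 and 4, with 343 and 749 in YT-ECKO 2 and 3 (log2 difference -0.79 ± 0.65, SE; limma adjusted p = 0.990). S1pr4 reached 145 scaled reads, in WT 1.

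Downstream of the G proteins, 16 of 20 effector genes were tested, 7 with higher and 9 with lower values and a median of -0.09, the same as over all tested genes. None was called, and 2 of the 16 had groups without overlap, beside 3.4% of all tested genes. Plcb3, a phospholipase C beta gene, stood at 488, 204, 478 and 153 scaled reads in WT 1 to 4, at 56.7 and 85.9 in YT-ECKO 2 and 3, and at 0 in YT-ECKO 1 and 4. Its log2 difference of -1.44 ± 0.54 (SE) had the smallest p of all the lists (limma unadjusted p = 0.0136, adjusted p = 0.760). At an unadjusted p under 0.05 there were 5.47% of all tested genes. Ric8b is a chaperone gene for G protein alpha subunits and not an effector, though it was counted in this list. It stood at 350 to 444 scaled reads in WT and at 0, 289, 246 and 92.0 in YT-ECKO 1 to 4 (log2 difference -1.07 ± 0.58, SE; limma adjusted p = 0.928). Rhoa, the GTPase on which this branch converges, averaged 9355 ± 1215 scaled reads in WT and 8682 ± 726 in YT-ECKO, and its relative Rhoc 15676 ± 4826 and 21227 ± 3679 (SD, n = 4 each; limma adjusted p = 0.991 and 0.928). Arhgef12, an exchange factor activated by G12/13, stood at 3073 ± 776 against 2789 ± 551 (SD, n = 4 each). Plcb4 was above 0 in WT 1, 2 and 4 and in YT-ECKO 4.

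Of 10 other alpha subunit genes 5 were tested, 2 with higher and 3 with lower values and a median of -0.30, none called. Gnai2 had a difference of 0.26 ± 0.22, Gnas, the Gs subunit, one of -0.30 ± 0.24, Gnai1 one of -0.83 ± 0.60 and Gnal one of -0.52 ± 0.55 (SE; limma adjusted p at or above 0.981). Of the 8 regulators of G protein signalling, which speed the return of alpha subunits to the inactive state, 4 were tested, 1 with higher and 3 with lower values and a median of -0.31. Rgs12 ranged from 1943 to 4130 scaled reads in WT and reached 6499, 6089 and 5745 in YT-ECKO 2 to 4 but 1886 in YT-ECKO 1, a difference of 0.63 ± 0.37 (SE; limma adjusted p = 0.960). The differences of Rgs2, Rgs3 and Rgs19 were -0.63 ± 0.56, -0.33 ± 0.56 and -0.30 ± 0.97 (SE).

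Of 14 other endothelial receptors of the list for G12/13 or Gq coupling, 7 were tested, 2 with higher and 5 with lower values, a median of -0.17 and no call. A place on this list does not show that a receptor couples to these G proteins, and for Adgrl4, also called Eltd1, such coupling is not established here. Adgrl4 had 5833, 6321, 6789 and 7082 scaled reads in WT 1 to 4, all below the 7559, 8215, 7755 and 9191 of YT-ECKO 1 to 4. Its log2 difference was 0.32 ± 0.26 (SE; limma adjusted p = 0.986; two-sided exact permutation p = 0.0286). That permutation p is the smallest that 4 against 4 allows, and 3.4% of all tested genes had groups without overlap. The thrombin receptor gene F2r was at 0 in WT 4 and YT-ECKO 1 and had a difference of -0.62 ± 0.61, F2rl3 one of -0.33 ± 0.32 and the thromboxane receptor gene Tbxa2r one of 0.43 ± 0.41 (SE).

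**Figure D3:**
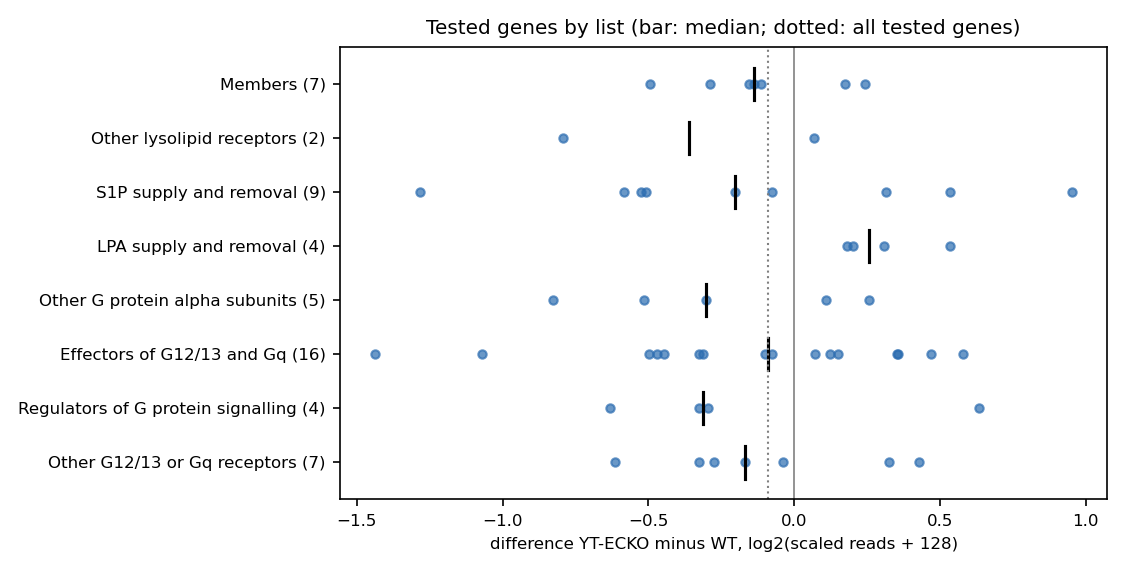
Difference YT-ECKO minus WT on the log2 (with pseudocount) scale for each tested gene (points) of the 10 lysolipid genes (top row, Members) and of 7 lists, with the number tested in parentheses and the list median as a bar; the dotted line is the median of all tested genes, -0.09. The medians lie between -0.36 and 0.26, and the points of each list with more than 4 tested genes lie on both sides of 0.

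Promoters were read from RefSeq (GRCm38.p6) as windows of 300 bases, 250 before and 50 after the annotated start, which were found for 8 of the 10 genes. They are shown because YAP and TAZ reach DNA through TEAD factors, whose core motif is GGAATG, or CATTCC on the other strand. Either form was found in 2 of the 8 windows (25%) and in 14.7% of all 32851 RefSeq promoter windows. Counted from the start site, the match began at position -166 in Gna11 (chr10:81545113-81545412, minus strand) and at position -23 in Lpar6 (chr14:73237641-73237940, plus strand). Capitals mark the match, and each window reads 5′ to 3′ on the strand of its gene.
Gna11: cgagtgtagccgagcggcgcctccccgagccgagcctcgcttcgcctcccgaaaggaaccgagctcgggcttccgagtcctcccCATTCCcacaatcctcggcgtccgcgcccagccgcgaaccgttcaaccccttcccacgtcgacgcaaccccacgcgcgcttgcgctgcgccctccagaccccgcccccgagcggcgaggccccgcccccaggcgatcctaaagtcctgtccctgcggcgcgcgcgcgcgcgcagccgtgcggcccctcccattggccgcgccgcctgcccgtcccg
Lpar6: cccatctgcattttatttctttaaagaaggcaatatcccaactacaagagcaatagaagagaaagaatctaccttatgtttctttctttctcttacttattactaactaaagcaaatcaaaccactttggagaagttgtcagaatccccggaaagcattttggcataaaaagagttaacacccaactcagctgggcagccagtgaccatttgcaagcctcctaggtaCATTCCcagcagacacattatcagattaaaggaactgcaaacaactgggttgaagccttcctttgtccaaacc
These are the genes with log2 differences of 0.17 and -0.49 above, and neither was called. A match is a description of the letters and does not show that a factor binds there.

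Enpp2 and Lpar6 were set beside other genes by their pattern over the 8 libraries, as the most abundant member and the tested member with the smallest p. Among 1934 other tested genes averaging at least 1000 scaled reads, the highest Pearson r with Enpp2 on the log2 (with pseudocount) scale was 0.96 for Rela, an NF-kappaB subunit gene. Dag1, which encodes dystroglycan, followed at 0.94 and Hnrnpr at 0.93. For Lpar6, searched among 1935 genes, they were Unc119b (0.93), Fubp1 (0.92) and Fam63a (0.92). Each of the latter was lowest in YT-ECKO 4, the library where Lpar6 was at 0: Unc119b stood at 206 scaled reads there and at 772 to 1584 elsewhere. These are the highest of many correlations over 8 libraries that share their scaling, and they are given as a description without a test.

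**Figure D4:**
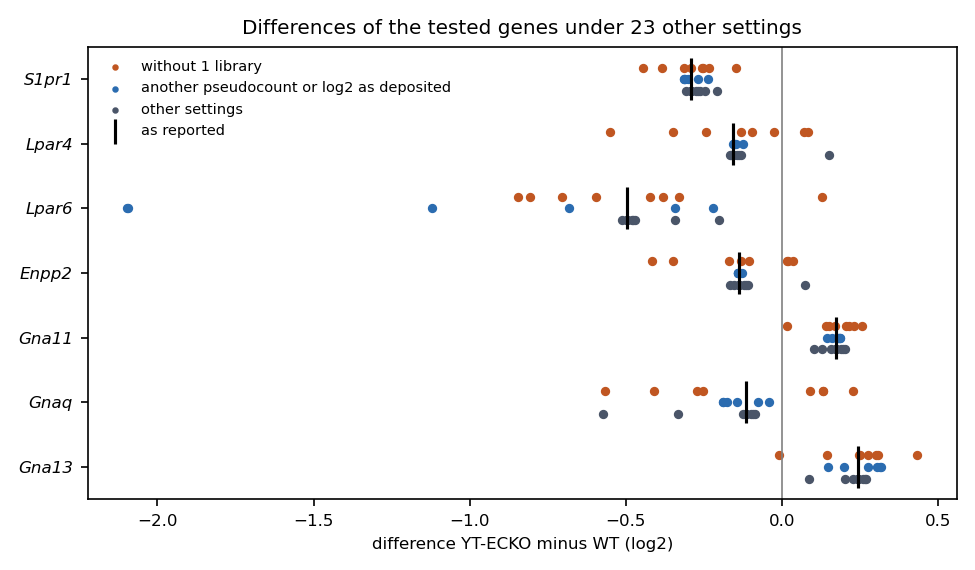
Difference YT-ECKO minus WT (log2) of the 7 tested genes under 23 other settings: each library left out in turn (orange), another pseudocount or the log2 values as deposited (blue), other settings (grey) and the value as reported (black bar). S1pr1 stays below 0 and Gna11 above 0 under all of them, while values of the other 5 lie on both sides of 0.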

How the data were processed

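The members and the gene lists were chosen with earlier results of these data known. Libraries were made from 500 ng of total RNA with a Lexogen Quant-Seq kit, per the labels' protocols; the submitters' processing notes name Bowtie2, edgeR and the mm10 build. Each of the 8 tables deposited by the authors holds log2 values by gene symbol, so no count test was run. They were converted to linear scaled reads, and a listed 0 stayed 0. The value of 1 read was the largest step on whose multiples values under 12 lay (88.3% to 100% within 0.1 of a multiple). It gives the read depth behind each value, 6.66 to 16.8 M reads per library. Reads can be copies of the same molecule, so this depth is not a number of molecules.

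Genes that reached 10 scaled reads in 4 or more libraries were tested on log2(scaled reads + 128) with limma 3.58.1 in R 4.3.3 (trended, robust, no covariates) and Benjamini-Hochberg adjustment at 0.05. Exact permutation tests compared mean linear values and enumerated all 70 assignments of the libraries to 2 groups. The function for the limma fit was tested on simulated data. Gene positions and exon lengths are from GENCODE M21 (GRCm38). Genes named were the 10 members, Yap1, Wwtr1, from every pathway list at most 4 tested genes, ranked by p (Rhoa, Arhgef12, Sphk1, Camk2d, Bgn and genes that overlap a member are outside this rule and were chosen after their values were seen), of each cell type list the 2 most abundant genes, given only beside a result they touch, and 3 pattern neighbours each for Enpp2 and Lpar6. Alternatives covered pseudocounts, scaling, filters, weights, a covariate, the replicate block and each library left out.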

Additional observations from a re-analysis of the deposited data

Results flagged for a closer look

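Of 23 groups of 4 libraries examined among the 10 lysolipid genes, Wwtr1 and Yap1, 4 held a library far from the other 3, by a gap to its nearest neighbour that took a larger share of the group's range than Dixon's 95% critical value. Chance marks about 1 group in 20 where values follow a normal distribution, which linear scaled reads need not do. That rate does not hold for the groups of S1pr2, S1pr3 and Gna12, where 3 libraries at 0 and 1 above 0 pass by construction, so the number of groups marked is not to be read against it. S1pr2 stood at 74.5 scaled reads in WT 3 and at 0 in the other WT libraries. S1pr3 stood at 86.1 in YT-ECKO 4 and at 0 in the other YT-ECKO libraries. Gna12 stood at 102 in YT-ECKO 2 and at 0 in the others of its group. Gna11 stood at 2323 in YT-ECKO 1, next to 1524 in YT-ECKO 2, and its gap passed the critical value only in the fourth decimal.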

How the results depend on the processing

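None of the 7 tested lysolipid genes was called under any of the 23 other settings (lowest limma adjusted p 0.854, smallest unadjusted p 0.211). Of the 161 differences so obtained, 148 kept the sign and 13 did not, and S1pr1 and Gna11 kept theirs throughout. Without 1 library in turn the differences ran from -0.44 (without YT-ECKO 2) to -0.15 (without YT-ECKO 4) for S1pr1, 0.016 to 0.26 for Gna11, -0.55 to 0.085 for Lpar4, -0.84 to 0.13 for Lpar6, -0.42 to 0.036 for Enpp2, -0.57 to 0.23 for Gnaq and -0.0079 to 0.43 for Gna13. With the erythroid level as a covariate they were 0.15 for Lpar4, 0.073 for Enpp2, -0.57 for Gnaq (-0.11 without it), -0.20 for Lpar6 (-0.49), 0.086 for Gna13 (0.24), -0.21 for S1pr1 (-0.29) and 0.13 for Gna11 (0.17). The number of genes called, 3, was 0 in 4 settings: a pseudocount of 1, the deposited log2 values themselves, no filter on low values and WT 2 left out (limma; 419, 423, 600 and 369 genes at an unadjusted p under 0.05, beside 476). It was 1 with the erythroid covariate, and 0 to 6 with 1 library left out; the causes were not tested. Same-numbered libraries had deviations that correlated at -0.09, -0.10, 0.18 and 0.16 over 1935 genes, so the numbers are not shown to pair the samples; with the replicate block 5 genes were called and none of the 7. Of the 4 numbers, 2 had their best match in their own number.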
